A study of Mus musculus with 6 samples.

Results

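ETS transcription factors are a family of DNA-binding proteins, and 10 of their genes are described here: Etv1, Etv4, Etv5, Etv6, Ets1, Ets2, Elk3, Fli1, Erg and Gabpa. They were chosen by gene symbol from the 32285 mouse genes that the libraries list, and all 10 were found. The choice was made with earlier results of these data known. The tissue was C57BL/6J mouse brain with lesions made by in utero electroporation, a method that brings plasmids into progenitors lining the ventricle of the embryonic brain, here those of the ganglionic eminences. The 10x Multiome assay was used, in which RNA and open chromatin (ATAC) are sequenced from the same nucleus. The 3 libraries were Foxr2 p53LOF replicate 1, with Foxr2 overexpression and a p53 loss of function, and Foxr2 alone replicates 1 and 2, with Foxr2 overexpression only. Foxr2, a forkhead transcription factor, was tagged with V5 and expressed together with GFP from an integrating piggyBac vector under the ubiquitous CAG promoter, so expression was not limited to a cell type. Loss of p53 came from a Cas9 plasmid with a guide RNA against Trp53, and a vector with the luciferase Akaluc and GFP was also used in the study. Only electroporated cells and their descendants can carry the vectors, so each library also holds host cells. Gene and peak counts were used from replicate 1 of each genotype, and only the peak list from Foxr2 alone replicate 2. With 1 library of counts per genotype there is no replicate, no test was made, and every difference below is a difference between libraries or groups of nuclei.

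The Foxr2 p53LOF library held 10379 barcodes with 96929539 UMIs (unique RNA molecules), and the Foxr2 alone library held 10096 barcodes with 59719847 UMIs. After filters and removal of doublets, 8413 and 8327 nuclei were kept, with a median of 5578 and 3632 UMIs. The libraries shared 140 barcodes. Clusters were named from marker genes, and each name carries "-like" because it rests on markers alone. The classes held, in Foxr2 p53LOF and Foxr2 alone in turn, 95 and 167 nuclei like oligodendrocyte precursor cells (OPC-like), 1526 and 3024 oligodendrocyte-like, 1380 and 399 astrocyte-like, 2262 and 4250 neuron-like and 1519 and 425 myeloid-like nuclei. Nuclei like committed oligodendrocyte precursors (COP-like, 1232 and 1) and lymphoid-like nuclei (95 and 1) came almost wholly from Foxr2 p53LOF. The OPC-like nuclei of both libraries formed the same cluster, 13. Different clusters held the other classes in the libraries: oligodendrocyte-like nuclei were cluster 3 in Foxr2 p53LOF and cluster 0 in Foxr2 alone, and neuron-like nuclei were clusters 2, 14 and 16 against 1, 7, 8 and 10. Astrocyte-like nuclei of Foxr2 p53LOF were mostly cluster 4, which was led by Hmga2, an oncofetal chromatin protein gene, and had 5 of 8 astrocyte markers, while those of Foxr2 alone were clusters 27 and 28. Myeloid-like nuclei of Foxr2 p53LOF fell into 8 clusters, 9, 18 and 20 to 25, while 417 of the 425 of Foxr2 alone were cluster 12. GFP or Akaluc RNA was found in 94.4% of astrocyte-like and 91.0% of COP-like nuclei of Foxr2 p53LOF, against 46.3% to 66.3% of its OPC-like, oligodendrocyte-like, neuron-like, myeloid-like and lymphoid-like nuclei. ATAC counts on the Akaluc and GFP vector were found in 27.2% and 26.9% of these nuclei, and in 0% to 2.11% of the latter 5 classes.

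ETS proteins share a DNA-binding domain that reads a GGAA core, and many are switched by the RAS and ERK kinase pathway downstream of growth factor receptors. Etv1, Etv4 and Etv5 form the PEA3 group, which acts downstream of FGF receptors and is restrained by the repressor Capicua (Cic). Etv6 is a repressor, Elk3 is a ternary complex factor that works with serum response factor, Fli1 and Erg are known from blood and endothelial cells, Ets1 from lymphocytes and endothelium, and Gabpa is a widely expressed factor that works as a complex with Gabpb1 or Gabpb2.

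Peaks near the start of a gene mark an accessible promoter. Of the 10 genes, 9 had a peak within 1000 bases of the most upstream start in Foxr2 p53LOF, 9 in Foxr2 alone replicate 1 and 8 in replicate 2, where 57.5%, 56.5% and 54.7% of 32145 genes had one. Ets1 had none in any library at its most upstream start, and Erg had none in Foxr2 alone replicate 2. Ets1 had a peak in all 3 libraries at its most downstream start, at position 32696384 of chromosome 9. The proximal promoter sequences of Etv6, Elk3 and Etv5 are shown because these are the members with an upstream window free of annotated exons that overlapped a peak in at least 2 libraries, and because RNA of these genes differed between the libraries in at least 1 class. Each is the 250 bases before a RefSeq transcript start in GRCm38.p6, 5′ to 3′ on the strand of the gene, with GGAA or its reverse complement TTCC in capitals.
Etv6, chr6:134035450-134035699, plus strand: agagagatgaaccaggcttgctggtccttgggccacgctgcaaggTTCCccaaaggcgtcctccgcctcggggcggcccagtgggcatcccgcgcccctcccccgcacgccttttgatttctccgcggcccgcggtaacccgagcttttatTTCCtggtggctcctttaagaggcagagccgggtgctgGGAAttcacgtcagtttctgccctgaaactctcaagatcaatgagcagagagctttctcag
Elk3, chr10:93311160-93311409, minus strand: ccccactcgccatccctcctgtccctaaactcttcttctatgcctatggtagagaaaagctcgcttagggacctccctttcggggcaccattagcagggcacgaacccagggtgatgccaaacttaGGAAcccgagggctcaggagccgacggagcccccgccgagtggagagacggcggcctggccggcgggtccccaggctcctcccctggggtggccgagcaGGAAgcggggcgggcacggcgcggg
Etv5, chr16:22438369-22438618, minus strand: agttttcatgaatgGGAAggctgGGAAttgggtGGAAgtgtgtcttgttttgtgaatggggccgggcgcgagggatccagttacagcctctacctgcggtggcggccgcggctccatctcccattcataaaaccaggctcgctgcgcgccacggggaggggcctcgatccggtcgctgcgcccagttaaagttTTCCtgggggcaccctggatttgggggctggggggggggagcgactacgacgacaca
The Etv6 window held 3 matches to the GGAA core on either strand, the Elk3 window 2 and the Etv5 window 4. Such a match was found in 93.4% of 32851 promoter windows of the same length, with a median of 3 matches, so its presence here is near the background. The longer letters CCGGAA, which contain GGAA, or their reverse complement TTCCGG were in none of these 3 windows, in 1 of the 11 windows of members (that of Gabpa), and in 12% of all windows. Peaks covered the whole Elk3 window in all 3 libraries, the whole Etv5 window in both replicates 1 and none of it in Foxr2 alone replicate 2, and 179, 194 and 250 bases of the Etv6 window in Foxr2 p53LOF and Foxr2 alone replicates 1 and 2. The table of promoters held no window for Ets1, Etv4 and Fli1.

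The PEA3 genes had their highest values in OPC-like nuclei in both libraries and were high in the astrocyte-like nuclei of Foxr2 p53LOF. Levels are given as UMIs of the gene per 1000000 UMIs of the class (CPM) with the exact Poisson 95% interval in parentheses, which covers counting error only. In Foxr2 p53LOF the OPC-like intervals of Etv1 and Etv5 overlapped the astrocyte-like ones. In Foxr2 alone the OPC-like interval of Etv1 overlapped the myeloid-like one. Etv4 (ENSMUSG00000017724, chromosome 11, 101769742 to 101785371, minus strand) was at 185 CPM (141 to 237) in OPC-like nuclei of Foxr2 p53LOF, 96.0 (90.6 to 102) in astrocyte-like and 46.3 (42.4 to 50.4) in COP-like nuclei. It was at 15.6 CPM (12.3 to 19.5) in myeloid-like and at 3.36 to 4.11 CPM in oligodendrocyte-like, neuron-like and lymphoid-like nuclei, whose intervals overlapped. In Foxr2 alone it was at 94.0 CPM (67.7 to 127) in OPC-like nuclei and at 0.762 to 9.57 CPM in the oligodendrocyte-like, astrocyte-like, neuron-like and myeloid-like classes. Etv4 was thus high in precursor-like nuclei of both libraries but in astrocyte-like nuclei of Foxr2 p53LOF only, with 1182 UMIs in Foxr2 p53LOF against 12 in Foxr2 alone (log2 ratio 3.33, where positive ratios are higher in Foxr2 p53LOF throughout, interval 2.52 to 4.28). The astrocyte-like nuclei of the libraries were different clusters, with GFP or Akaluc RNA in 94.4% and 18.3% of them. The kind of nucleus and the library therefore cannot be told apart. After each nucleus was thinned to 1000 UMIs, 9.02% of astrocyte-like nuclei of Foxr2 p53LOF held an Etv4 UMI and 0.251% of those of Foxr2 alone, beside a background of 1.95% and 0.356% in myeloid-like nuclei. Without thinning the shares were 40.1% and 3.01%, beside 4.48% and 0.706% in myeloid-like nuclei, at median depths of 7749 and 2534 UMIs in the astrocyte-like and 2559 and 1133 in the myeloid-like class. Thinning left out nuclei with under 1000 UMIs, 6 and 1 of the astrocyte-like and 32 and 144 of the myeloid-like class. In the other classes named here it left out 76 COP-like and 4 lymphoid-like nuclei of Foxr2 p53LOF and 0 and 18 neuron-like nuclei.

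Etv5 (ENSMUSG00000013089, chromosome 16, 22381309 to 22439719, minus strand) was at 218 CPM (170 to 274) in OPC-like and 188 CPM (181 to 196) in astrocyte-like nuclei of Foxr2 p53LOF, which overlapped. It was at 119 CPM (110 to 129) in myeloid-like, 74.6 (69.7 to 79.8) in COP-like, 37.0 (16.9 to 70.2) in lymphoid-like, 25.3 (20.6 to 30.6) in oligodendrocyte-like and 23.1 (21.2 to 25.0) in neuron-like nuclei. In Foxr2 alone the order was OPC-like at 166 CPM (130 to 208), astrocyte-like at 94.9 (78.6 to 114), myeloid-like at 77.8 (56.8 to 104), neuron-like at 28.0 (26.3 to 29.9) and oligodendrocyte-like at 6.35 (4.11 to 9.37). OPC-like nuclei thus had the highest value in both libraries, and the oligodendrocyte-like class held the only Etv5 difference past 2-fold (log2 ratio 1.99, interval 1.35 to 2.69). In the astrocyte-like class the log2 ratio was 0.99 (interval 0.72 to 1.27), just under 2-fold. Within the neuron-like class of Foxr2 p53LOF, Etv5 spanned 6.92 CPM in cluster 14 to 87.8 CPM in cluster 16, which was led by the dopamine transporter gene Slc6a3.

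Etv1 (ENSMUSG00000004151, chromosome 12, 38779380 to 38870484, plus strand) was at 182 CPM (139 to 234) in OPC-like, 169 (162 to 177) in astrocyte-like and 149 (142 to 157) in COP-like nuclei of Foxr2 p53LOF. Its other levels there were 73.4 CPM (65.3 to 82.2) in oligodendrocyte-like, 55.5 (49.0 to 62.6) in myeloid-like, 41.1 (19.7 to 75.5) in lymphoid-like and 19.6 (17.9 to 21.4) in neuron-like nuclei. In Foxr2 alone it was at 103 CPM (75.4 to 137) in OPC-like, 81.3 (59.7 to 108) in myeloid-like, 61.4 (48.5 to 76.8) in astrocyte-like, 52.6 (45.7 to 60.3) in oligodendrocyte-like and 25.3 (23.7 to 27.1) in neuron-like nuclei, and each neighbour in this order overlapped the next except the neuron-like class. For Etv1 the only difference past 2-fold was in the astrocyte-like class (log2 ratio 1.46, interval 1.13 to 1.81). In OPC-like nuclei the log2 ratios of Etv1, Etv4 and Etv5 were 0.82, 0.97 and 0.40, with intervals of 0.24 to 1.41, 0.38 to 1.58 and -0.09 to 0.88.

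**Figure D1:**
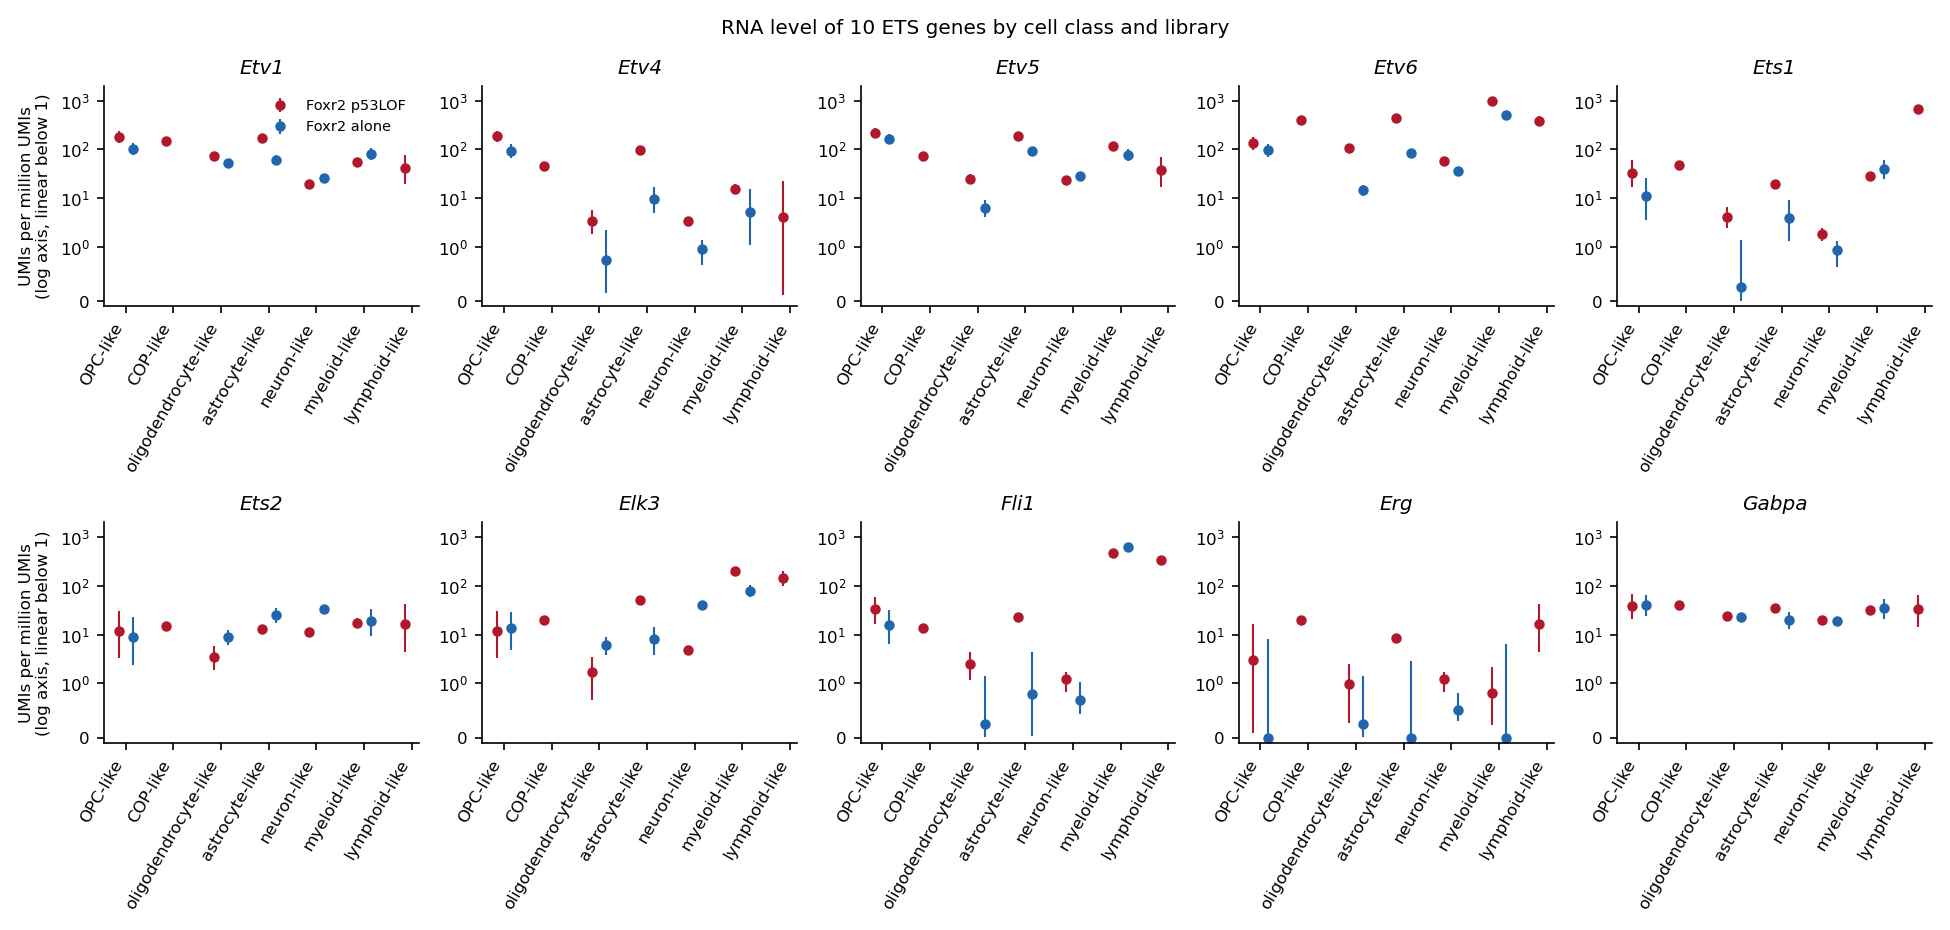
RNA level of each of the 10 ETS genes in UMIs per 1000000 UMIs of the class, on a log axis that is linear below 1, for each class with at least 50 nuclei. Points are the summed level of a library (red, Foxr2 p53LOF; blue, Foxr2 alone) and bars are exact Poisson 95% intervals. Etv6 and Fli1 are highest in myeloid-like nuclei, Ets1 in lymphoid-like nuclei, and Gabpa lies between 18.7 and 40.3 in every class.

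Etv6 (ENSMUSG00000030199, chromosome 6, 134035700 to 134270158, plus strand) was highest in myeloid-like nuclei of both libraries among the classes with at least 50 nuclei. Of the 5 such classes in both libraries, 4 had more of it in Foxr2 p53LOF by an interval above 0, and in the OPC-like class the interval included 0. In Foxr2 p53LOF it was at 1006 CPM (978 to 1034) in myeloid-like, 443 (432 to 455) in astrocyte-like, 392 (381 to 404) in COP-like and 390 (316 to 477) in lymphoid-like nuclei, and of these the lymphoid-like level overlapped the COP-like and astrocyte-like levels. It was at 136 CPM (99.3 to 182) in OPC-like, 106 (96.5 to 117) in oligodendrocyte-like and 56.5 (53.6 to 59.5) in neuron-like nuclei. In Foxr2 alone it was at 514 CPM (457 to 575) in myeloid-like, 96.2 (69.6 to 130) in OPC-like, 85.3 (69.9 to 103) in astrocyte-like, 36.1 (34.1 to 38.2) in neuron-like and 14.7 (11.2 to 19.0) in oligodendrocyte-like nuclei. The log2 ratios between the libraries, Foxr2 p53LOF over the other, were 2.85 (interval 2.45 to 3.27) in oligodendrocyte-like and 2.38 (2.10 to 2.67) in astrocyte-like nuclei, and 0.50 (-0.13 to 1.14), 0.65 (0.54 to 0.76) and 0.97 (0.80 to 1.14) in the OPC-like, neuron-like and myeloid-like classes. After thinning, 59.8% of myeloid-like nuclei of Foxr2 p53LOF held an Etv6 UMI and 43.1% of those of Foxr2 alone, and 30.2% against 8.29% of astrocyte-like nuclei, and 4.996% against 2.91% of neuron-like nuclei. Without thinning these shares were 84.1% and 46.8%, 80.4% and 18.8%, and 37.5% and 19.9%. Beside the oligodendrocyte-like difference, summed myeloid markers in this class were at 155 CPM in Foxr2 p53LOF (7 of 8 markers with a UMI, Mrc1 at 0) and 64.8 CPM in Foxr2 alone (6 of 8). Fli1, which was near 472 CPM in myeloid-like nuclei of Foxr2 p53LOF, was at 2.45 CPM in the oligodendrocyte-like nuclei that had 106 CPM of Etv6. Set against the vector, Etv6 had 55.2 to 83.3 UMIs per 100 GFP UMIs in the OPC-like, COP-like, oligodendrocyte-like, astrocyte-like, neuron-like and lymphoid-like classes of Foxr2 p53LOF and 459 in the myeloid-like class. Etv5 had 7.89 to 13.4 per 100 GFP UMIs in lymphoid-like, COP-like and oligodendrocyte-like, 30.2 to 54.3 in neuron-like, astrocyte-like and myeloid-like and 112.5 in OPC-like nuclei. Whether RNA from outside the nucleus took part in these levels was not tested. Genes Gm43982 and Gm43984 lie within Etv6 on the same strand and were not counted as genes of their own, so their reads can be counted as Etv6.

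Ets1 and Ets2 are close relatives and had different class patterns. Ets1 (ENSMUSG00000032035, chromosome 9, 32636221 to 32757820, plus strand) was at 673 CPM (574 to 785) in lymphoid-like nuclei and at 47.9 (44.0 to 52.1) in COP-like, 33.3 (16.6 to 59.6) in OPC-like, 28.5 (23.9 to 33.7) in myeloid-like and 19.97 (17.6 to 22.6) in astrocyte-like nuclei of Foxr2 p53LOF. It was at 4.17 CPM (2.43 to 6.68) in its oligodendrocyte-like and 1.82 CPM (1.33 to 2.42) in its neuron-like nuclei. In Foxr2 alone it was at 39.8 CPM (25.2 to 59.7) in myeloid-like nuclei, 11.2 (3.63 to 26.1) in OPC-like and 3.99 (1.29 to 9.31) in astrocyte-like nuclei, and under 1 CPM in the oligodendrocyte-like and neuron-like classes. Lymphoid-like nuclei were thus far above the rest among the classes with at least 50 nuclei. The small cluster 34, described with Erg, was at 598 CPM (472 to 747) in Foxr2 p53LOF, which overlapped the lymphoid-like level. The myeloid-like level of Foxr2 p53LOF rested largely on cluster 9, which held 85 of its 137 Ets1 UMIs at 51.8 CPM. The median of its 8 clusters was 12.9 CPM, and cluster 23 held none. The astrocyte-like difference was 246 against 5 UMIs (log2 ratio 2.32, interval 1.08 to 3.96). The OPC-like log2 ratio of 1.57 rested on 11 and 5 UMIs and had an interval of -0.07 to 3.45. After thinning, 47.3% of lymphoid-like and 4.24% of COP-like nuclei held an Ets1 UMI, against a background of 0.221% and 0.0945% in neuron-like nuclei of Foxr2 p53LOF and Foxr2 alone. Without thinning these shares were 70.5%, 22.8%, 1.95% and 0.682%, at median depths of 1919, 7720, 9992.5 and 7304 UMIs.

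Ets2 (ENSMUSG00000022895, chromosome 16, 95702075 to 95721051, plus strand) was instead higher in neuron-like nuclei of Foxr2 alone, at 33.3 CPM (31.3 to 35.3) against 11.3 CPM (10.1 to 12.7) in Foxr2 p53LOF (log2 ratio -1.55, interval -1.75 to -1.36). The neuron-like clusters of Foxr2 alone were at 19.4 to 40.2 CPM and those of Foxr2 p53LOF at 6.92 to 11.9 CPM, without overlap. The clusters differ in kind, since those of Foxr2 alone were led by genes such as Penk and Drd2 (striatal projection neurons) and Sst (interneurons), and those of Foxr2 p53LOF by others, so the kind of neuron and the library cannot be told apart. In the astrocyte-like class Ets2 was at 13.2 CPM (11.2 to 15.3) against 25.5 (17.5 to 36.0), a log2 ratio of -0.96. The lowest level of Foxr2 p53LOF was 3.43 CPM (1.88 to 5.76) in oligodendrocyte-like nuclei, and its OPC-like, COP-like, myeloid-like and lymphoid-like classes lay between 12.1 and 17.5 CPM with overlapping intervals. In Foxr2 alone the OPC-like, oligodendrocyte-like and myeloid-like classes were at 8.95, 8.89 and 19.0 CPM.

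Elk3 (ENSMUSG00000008398, chromosome 10, 93247414 to 93311135, minus strand) was past 2-fold between the libraries in 3 classes, and not in the same direction. It was at 206 CPM (193 to 219) in myeloid-like, 144 (100 to 200) in lymphoid-like, 52.1 (48.2 to 56.3) in astrocyte-like and 20 (17.5 to 22.8) in COP-like nuclei of Foxr2 p53LOF, and at 12.1, 4.82 and 1.72 CPM in its OPC-like, neuron-like and oligodendrocyte-like nuclei. In Foxr2 alone it was at 79.6 CPM (58.2 to 106) in myeloid-like and 40.4 (38.3 to 42.6) in neuron-like nuclei, and at 13.4, 7.98 and 6.10 CPM in the OPC-like, astrocyte-like and oligodendrocyte-like classes. The log2 ratio, again with Foxr2 p53LOF as numerator, was 2.71 (interval 1.82 to 3.78) in astrocyte-like and 1.37 (0.95 to 1.83) in myeloid-like nuclei, and -3.07 (-3.35 to -2.80) in neuron-like nuclei. All 3 neuron-like clusters of Foxr2 p53LOF, at 3.23 to 6.24 CPM, lay below all 4 of Foxr2 alone, at 13.9 to 48.7 CPM. As with Ets2, these clusters differ in kind, so the kind of neuron and the library cannot be told apart. Cdk17 overlaps Elk3 on the opposite strand, and the sources used here do not give whether counting used the strand. Cdk17 was at 119 CPM (115 to 123) and 424 CPM (417 to 431) in neuron-like nuclei of Foxr2 p53LOF and Foxr2 alone, at 328 (318 to 338) and 147 (126 to 170) in astrocyte-like nuclei and at 182 (170 to 195) and 147 (117 to 182) in myeloid-like nuclei. It thus differed in the same direction as Elk3 in the neuron-like and astrocyte-like classes, while its myeloid-like intervals overlapped. Its part in the Elk3 counts was not tested.

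Fli1 (ENSMUSG00000016087, chromosome 9, 32422204 to 32542861, minus strand) had its highest class levels in the immune classes. The small cluster 34 with endothelial markers, described with Erg, was higher at 1025 CPM in Foxr2 p53LOF. It was at 472 CPM (452 to 492) in myeloid-like and 337 (268 to 418) in lymphoid-like nuclei of Foxr2 p53LOF and at 616 (553 to 683) in myeloid-like nuclei of Foxr2 alone, where the log2 ratio was -0.38 (-0.55 to -0.22). Within the myeloid-like class of Foxr2 p53LOF it spanned 254 to 601 CPM. Its cluster 9 at 601 (564 to 640) overlapped cluster 12 of Foxr2 alone at 656 (589 to 728). After thinning, 34.9% and 44.1% of myeloid-like nuclei of Foxr2 p53LOF and Foxr2 alone held a Fli1 UMI, beside 0.133% and 0.0709% of neuron-like nuclei. Without thinning these shares were 62.3% and 50.4%, beside 1.28% and 0.424%. In glia-like nuclei of Foxr2 p53LOF it was at 33.3 CPM (16.6 to 59.6) in OPC-like, 23.5 (20.9 to 26.4) in astrocyte-like and 13.7 (11.7 to 16.1) in COP-like nuclei. The astrocyte-like level came from 290 UMIs, against 1 UMI in Foxr2 alone (log2 ratio 4.88, interval 2.39 to 10.19). In the same class, summed myeloid markers were at 293 CPM in Foxr2 p53LOF (8 of 8 markers with a UMI) and 122 CPM in Foxr2 alone (6 of 8), and endothelial markers at 101 CPM (9 of 9) and 14.4 CPM (6 of 9). Their part in the Fli1 level was not tested. Several short genes lie within Fli1 on the same strand and were likewise not counted on their own, so its counts share that limit with Etv6.

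Erg (ENSMUSG00000040732, chromosome 16, 95359169 to 95586593, minus strand) was the sparsest member. In Foxr2 p53LOF it was at 20.4 CPM (17.9 to 23.2) in COP-like, 16.4 (4.48 to 42.1, on 4 UMIs) in lymphoid-like and 8.36 (6.83 to 10.1) in astrocyte-like nuclei. Its level was 0.832 to 3.03 CPM in the OPC-like, oligodendrocyte-like, neuron-like and myeloid-like classes of this library. In Foxr2 alone no class passed 1 CPM, and astrocyte-like nuclei held no Erg UMI, against 103 in Foxr2 p53LOF. With 3 UMIs set as the floor over the class, this was 3.49-fold higher in Foxr2 p53LOF, with a level under the 10 CPM asked for a call. The lower limit of the log2 ratio from the counts was 1.48. The highest Erg was in cluster 34, a small cluster of 32 and 22 nuclei with 9 of 9 endothelial markers that was left unnamed because mural markers were also high in it. There Erg was at 264 CPM (183 to 369) in Foxr2 p53LOF and 83.5 CPM (30.6 to 182) in Foxr2 alone. Fli1 was at 1025 CPM (858 to 1216) and 237 CPM (138 to 379) in this cluster, and Ets1 at 598 CPM (472 to 747) and 181 CPM (96.3 to 309). COP-like nuclei of Foxr2 p53LOF held Erg, Ets1 and Fli1 at 20.4, 47.9 and 13.7 CPM, with endothelial markers summing to 47.2 and 41.7 CPM in those with and without a vector count.

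Gabpa (ENSMUSG00000008976, chromosome 16, 84834925 to 84863779, plus strand) varied least between classes. It ran from 19.6 CPM in neuron-like to 39.7 CPM in COP-like nuclei of Foxr2 p53LOF and from 18.7 CPM in neuron-like to 40.3 CPM in OPC-like nuclei of Foxr2 alone. Its log2 ratios were between -0.13 and 0.12 in the OPC-like, oligodendrocyte-like, neuron-like and myeloid-like classes. In astrocyte-like nuclei it was at 35.4 CPM (32.2 to 38.9) against 19.9 (12.9 to 29.4), a log2 ratio of 0.83 (interval 0.25 to 1.47). Atp5j overlaps Gabpa on the opposite strand and was at 32.2 CPM and 306 CPM in these nuclei, opposite in direction.

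Between the libraries, a gene was called past 2-fold with at least 10 CPM in the higher library and a log2 ratio of at least 1 in size, and the members were read beside the share of all mouse genes with 10 CPM in a library. In astrocyte-like nuclei 6 of 9 members tested were higher in Foxr2 p53LOF (Ets1, Etv1, Etv4, Etv6, Elk3 and Fli1) where 25.5% of all genes were, and 0 were higher in Foxr2 alone where 27% of all genes were. The members' median log2 ratio was 2.32, against 0.06 over all genes. Because the members were chosen with earlier results of these data known, the shares of all genes are a description and no independent yardstick. In oligodendrocyte-like nuclei 2 of 4 (Etv5 and Etv6) were higher in Foxr2 p53LOF, beside 13.2% of all genes, and 0 in Foxr2 alone, beside 20.6%. In neuron-like nuclei 0 of 6 were higher in Foxr2 p53LOF, beside 13.4%, and 2 (Ets2 and Elk3) were higher in Foxr2 alone, beside 19%. In OPC-like nuclei 2 of 9 (Ets1 on 11 against 5 UMIs and Fli1 on 11 against 7) were higher in Foxr2 p53LOF, beside 11.2%, and 0 in Foxr2 alone, beside 22.3%. Both intervals included 0, at -0.07 to 3.45 for Ets1 and -0.41 to 2.69 for Fli1, and the log2 ratio of Fli1 turned from 1.09 to -0.31 at Leiden resolution 1, a finer clustering. In myeloid-like nuclei 2 of 9 (Etv4 and Elk3) were higher in Foxr2 p53LOF, beside 14.2%, and 0 in Foxr2 alone, beside 24.4%. Etv4 there was at 15.6 against 5.19 CPM on 75 and 3 UMIs, with an interval of -0.02 to 3.90 on the log2 scale. Cluster 9 held 53 of the 75 UMIs. Counted as UMIs per nucleus instead, without correction for depth, more members were past 2-fold higher in Foxr2 p53LOF, and so were more of all genes. The counts were 4 of 9 in the OPC-like class beside 19.2% of all genes, 4 of 4 in the oligodendrocyte-like beside 49.1%, 8 of 9 in the astrocyte-like beside 63%, 1 of 6 in the neuron-like beside 27% and 6 of 9 in the myeloid-like beside 50.5%. Summed over a class, a lower level can reflect fewer nuclei that use a gene or less RNA in each, and these cannot be told apart. Apart from the OPC-like class, the libraries held mostly different clusters of each class. The kind of nucleus and the library cannot be told apart there.

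**Figure D2:**
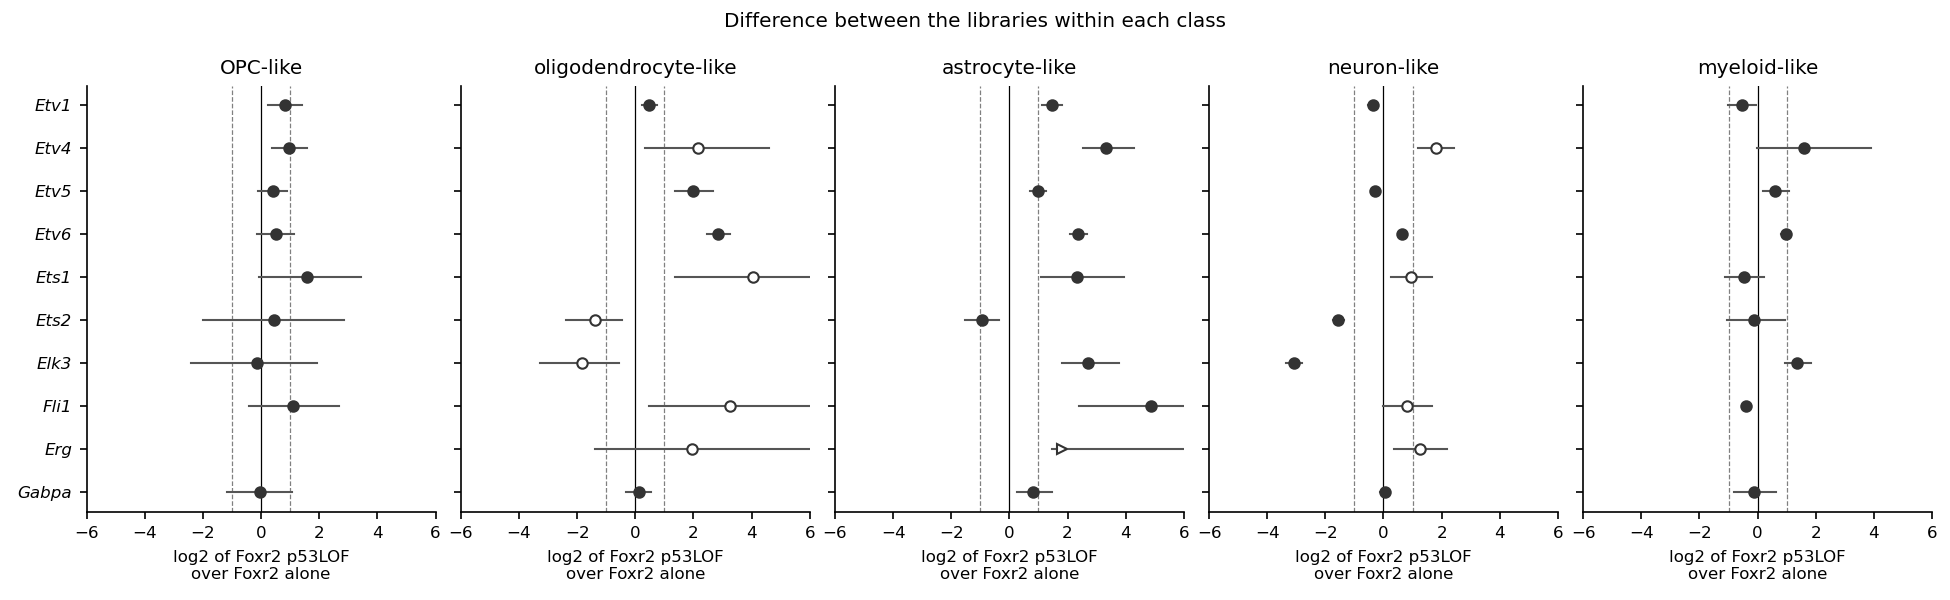
Log2 ratio between the libraries (x axis, positive where Foxr2 p53LOF is higher) for each member (rows) in each class with at least 50 nuclei in both libraries. Filled points reach 10 CPM in a library, open points do not, and the triangle is a ratio against a floor of 3 UMIs. Bars are exact 95% intervals from the counts and some run past the axis, and dashed lines mark 2-fold. Points lie to the right of 0 for 9 of 10 members in the astrocyte-like class, and Elk3 lies at -3.07 in the neuron-like class.

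Because cluster 4 held 1262 of the 1380 astrocyte-like nuclei of Foxr2 p53LOF, the comparison was repeated with and without it. With cluster 4 only, 7 members were past 2-fold (Etv5 joined at a log2 ratio of 1.04), where 26.2% of all genes were, and 0 were higher in Foxr2 alone, where 27.7% were. With the other 118 nuclei, of which 68 and 45 were in clusters 31 and 32 with 8 of 8 astrocyte markers, 3 of 8 members were past 2-fold (Ets1, Etv4 and Elk3), where 16% of all genes were, and 0 were higher in Foxr2 alone, where 19.6% were. In these 118 nuclei Etv6 was at 98.0 CPM (log2 ratio 0.20, interval -0.29 to 0.67) and Etv5 at 52.4 CPM (log2 ratio -0.86, interval -1.48 to -0.28). Etv4 was at 27.0 CPM (log2 ratio 1.498, interval 0.33 to 2.71) on 16 UMIs. Fli1 had 287 of its 290 astrocyte-like UMIs in cluster 4 and 3 in the other nuclei (5.07 CPM), where it was not called. The higher levels of Etv1, Etv5, Etv6 and Fli1 in the astrocyte-like class were thus those of cluster 4, in which Etv6 was at 461 CPM against 116 CPM in cluster 31. Foxr2 alone held 1 nucleus of cluster 4, so this kind of nucleus and the library cannot be told apart.

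**Figure D3:**
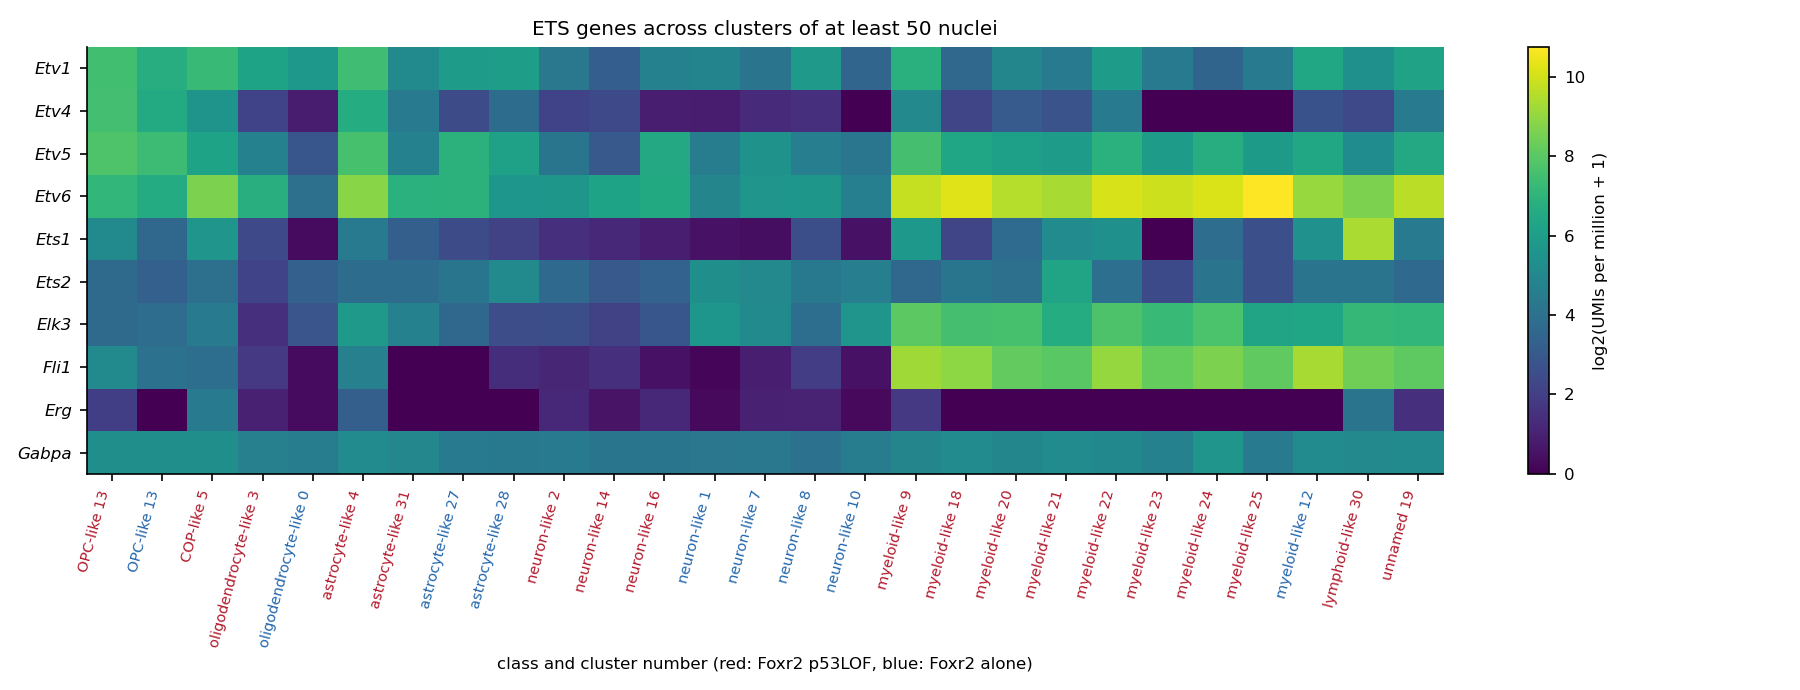
Level of each member (rows) as log2(CPM + 1) (color) in each cluster and library with at least 50 nuclei (columns, red labels for Foxr2 p53LOF and blue for Foxr2 alone). Astrocyte-like cluster 4 is brighter than clusters 27, 28 and 31 for Etv1, Etv4, Etv6, Elk3 and Fli1, and the brightest cluster is myeloid-like for Etv6 (cluster 25 at 1722 CPM) and Fli1 (cluster 12 at 656 CPM), with some myeloid-like clusters below unnamed cluster 19 for Etv6 (791 CPM) and lymphoid-like cluster 30 for Fli1 (337 CPM).

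Related genes were set beside the members in 4 lists. These too were chosen with earlier results of these data known, so their counts beside the shares of all genes are a description. Of 14 genes of ERK feedback and early response, which include targets that ERK signaling is known to induce, 12 of 13 tested were past 2-fold higher in Foxr2 p53LOF in astrocyte-like nuclei, beside 25.5% of all genes, and 0 lower, beside 27% (median log2 ratio 2.75). The 2 largest were Dusp5, an ERK phosphatase, at 50.6 against 1.60 CPM (log2 ratio 4.99, on 623 and 2 UMIs), and Ccnd1, encoding cyclin D1, at 189 against 7.98 CPM (log2 ratio 4.56). With cluster 4 only the count was 12 of 12, beside 26.2% of all genes, and without it 8 of 10, beside 16%. In oligodendrocyte-like nuclei 5 of 7 were higher in Foxr2 p53LOF, beside 13.2% of all genes, and 0 lower, beside 20.6%, with Fos at 19.4 against 1.52 CPM and Ccnd1 at 39.7 against 4.06 CPM as the largest. In OPC-like nuclei, from the same cluster in both libraries, 2 of 11 were higher (among them Ccnd1, 112 against 40.3 CPM), beside 11.2% of all genes, and 1 was lower (Dusp6, 12.1 against 33.6 CPM, on 4 and 15 UMIs), beside 22.3%. In neuron-like nuclei 2 of 7 were higher, beside 13.4%, and 1 lower, beside 19%, with Fos at 10.9 against 1.66 CPM and Spry2, an inhibitor of receptor signaling, at 5.97 against 27.6 CPM. In myeloid-like nuclei 2 of 7 were higher, beside 14.2%, Fos at 23.7 CPM against 0 UMIs and Egr1 at 21.4 against 8.65 CPM, and 0 were lower, beside 24.4%.

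The counts of the other 3 lists, of few genes each, stand beside the same shares of all genes: 25.5% higher and 27% lower in Foxr2 p53LOF in astrocyte-like, 13.2% and 20.6% in oligodendrocyte-like, 11.2% and 22.3% in OPC-like, 13.4% and 19% in neuron-like and 14.2% and 24.4% in myeloid-like nuclei. Of 6 receptors upstream of ERK, 2 were higher and 1 lower in Foxr2 p53LOF in the astrocyte-like class, where Pdgfra, a PDGF receptor, was at 152 against 6.38 CPM and Met, the HGF receptor, at 37.4 against 7.98 CPM. The counts were 1 of 3 higher in oligodendrocyte-like nuclei (Pdgfra, 34.8 against 2.79 CPM), 1 higher and 1 lower of 5 in OPC-like (Egfr, 12.1 against 2.24 CPM on 4 and 1 UMIs, and Fgfr2, 99.9 against 407 CPM), 2 higher and 1 lower of 4 in neuron-like (Pdgfra, 11.6 against 0.937 CPM, and Fgfr1, 49.1 against 10.9 CPM) and 3 higher and 1 lower of 5 in myeloid-like nuclei (Pdgfra, 37.2 against 1.73 CPM, and Fgfr2, 75.3 against 289 CPM). Pdgfra, a marker of OPCs, was at 1223 and 915 CPM in OPC-like nuclei. In each of the other 4 classes compared it was past 2-fold higher in Foxr2 p53LOF. Whether RNA from outside the nucleus took part in the counts of the 4 lists was not tested. Of 10 partners and regulators of ETS proteins, 2 of 8 were higher, near the 25.5% of all genes, and 0 lower in astrocyte-like nuclei (Trib1, a pseudokinase that directs proteins to degradation, at 57.0 against 9.57 CPM, and Gabpb2, a partner of Gabpa, at 65.8 against 26.3 CPM). In oligodendrocyte-like nuclei 1 of 8 was higher (Trib1) and 1 lower (Atxn1, 166 against 488 CPM, whose protein binds Capicua), in OPC-like nuclei 1 of 8 was higher (Gabpb2) and 1 lower (Atxn1l), and in neuron-like and myeloid-like nuclei 0 of 7 and 0 of 9 were past 2-fold. Of 16 other ETS genes, 2 of 7 were higher in astrocyte-like nuclei, again near the 25.5% of all genes (Erf, an ERK-controlled repressor, at 27.4 against 5.58 CPM, and Elf1 at 160 against 63.8 CPM), and 0 of 6, 0 of 5 and 0 of 5 were past 2-fold in OPC-like, oligodendrocyte-like and neuron-like nuclei. In myeloid-like nuclei 1 of 8 was higher (Etv3, 110 against 45.0 CPM) and 2 were lower (Elk4, and Elk1 at 4.16 against 12.1 CPM).

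Nuclei with and without a vector count were compared within a class and library. In Foxr2 p53LOF, where a count in an ATAC peak on the Akaluc and GFP vector defined the group, 332 COP-like nuclei had a vector count and 900 did not, and none of the 10 members was past 2-fold in either direction, where 0.285% of all genes were higher with and 0.492% without a count. The member ratios were within -0.22 to 0.29 on the log2 scale, with Etv6 at 353 CPM with and 411 CPM without a count (log2 ratio -0.22, interval -0.31 to -0.13). In the astrocyte-like class 376 nuclei had a vector count and 1004 did not, 0 of 10 members were higher with a count, where 0.109% of all genes were, and 2 were higher without, where 0.938% of all genes were. These were Fli1, at 12.8 CPM with and 28.2 CPM without (log2 ratio -1.13, interval -1.61 to -0.68), and Erg, at 3.75 and 10.4 CPM on 14 and 89 UMIs (log2 ratio -1.47, interval -2.40 to -0.65). In the same groups, lymphoid markers summed to 6.69 and 19.2 CPM (8 of 8 with a UMI in each), myeloid markers to 253 and 311 CPM (8 of 8) and endothelial markers to 101 and 101 CPM (9 of 9), and their part in the result was not tested. The count of 2 went to 0 with at least 3 ATAC counts per nucleus as the definition, with nuclei thinned to 1000 UMIs, with stricter minimums per nucleus and with finer clusters. Etv4 and Etv5 were at 112 and 222 CPM with and 88.9 and 174 CPM without a count (log2 ratios 0.33 and 0.35, intervals 0.16 to 0.51 and 0.23 to 0.48), and Etv1 at 165 and 171 CPM (log2 ratio -0.05, interval -0.19 to 0.08). With a UMI of GFP or Akaluc as the definition, only 111 COP-like and 77 astrocyte-like nuclei were without one, against 1121 and 1303 with one. Then 3 of 10 members were higher with such a UMI in the COP-like class (Ets1, Ets2 and Erg), beside 9.25% of all genes, and 0 without, beside 4.26%. In the astrocyte-like class 3 of 10 were higher with a UMI (Ets2, Etv4 and Etv6), beside 8.22%, and 1 without (Erg), beside 9.02%. A nucleus without a vector count can still hold the vector, since counts per nucleus were few.

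**Figure D4:**
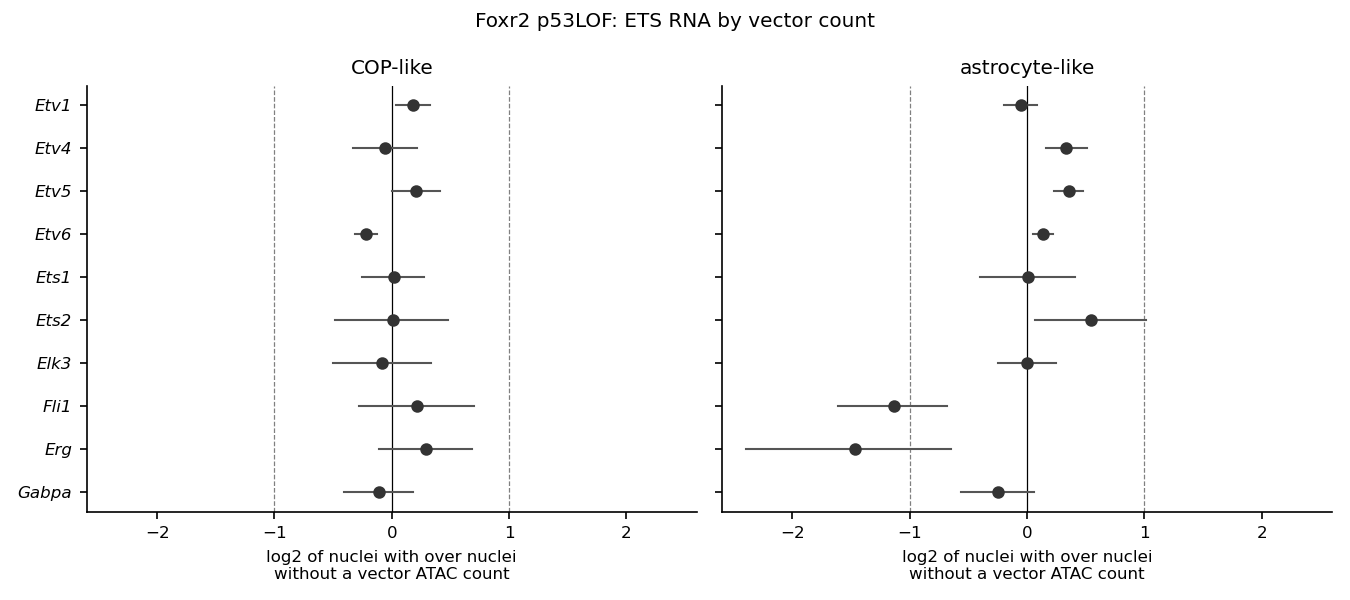
Log2 ratio of nuclei with over nuclei without an ATAC count on the vector (x axis) for each member (rows) in the COP-like and astrocyte-like classes of Foxr2 p53LOF, with exact 95% intervals from the counts and dashed lines at 2-fold. Ratios lie within -0.25 and 0.55 except for Fli1 at -1.13 and Erg at -1.47 in the astrocyte-like class.

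Foxr2 alone replicate 1 lists no peak on that vector, so a UMI of GFP or Akaluc defined the group there. Of its oligodendrocyte-like nuclei 162 (5.36%) had such a UMI, of its astrocyte-like nuclei 73 (18.3%) and of its neuron-like nuclei 349 (8.21%). Among its myeloid-like nuclei 2.82% had one, at a median of 1133 UMIs, against a median of 7304 in the neuron-like class. How many of the nuclei with a UMI hold the vector was not tested. In the neuron-like class 0 of 6 members were past 2-fold in either direction, where 0.171% of all genes were higher with and 0.242% higher without a UMI, and Etv5 was at 39.2 against 27.0 CPM (log2 ratio 0.54, interval 0.24 to 0.83). In the oligodendrocyte-like class 0 of 4 were past 2-fold in either direction, beside 14.9% and 6.74% of all genes. In the astrocyte-like class 1 of 6 was higher with a UMI (Etv4, on 6 UMIs in each group, interval -0.30 to 3.50), beside 9.66% of all genes, and 0 were higher without, beside 8.46%. Of the lists, 0 genes of any of the 4 were past 2-fold in either class of Foxr2 p53LOF or in neuron-like nuclei of Foxr2 alone. In astrocyte-like nuclei of Foxr2 alone, 3 of 6 ERK feedback and early response genes were higher with a UMI (Spry2, Ccnd1 and Egr1) and 1 without (Fos), and so was 1 of 5 receptors with (Met), 2 of 6 other ETS genes without (Elk4 and Etv3) and 1 of 7 partners without (Atxn1). In its oligodendrocyte-like nuclei 2 of 4 ERK feedback and early response genes (Spred2 and Egr1), 1 of 8 partners (Srf) and 1 of 6 other ETS genes (Elk1) were higher with a UMI, 1 other ETS gene was higher without (Erf), and 0 of 2 receptors were called. These are read beside the shares of all genes given for the same class.

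ATAC counts in the promoter peaks, per 1000000 peak counts of the class, followed RNA for some members and not for others. Except for Ets1, they were taken from peaks within 1000 bases of the most upstream start. Nonzero peak counts were even numbers in 80.7% of cases in Foxr2 p53LOF and 82.9% in Foxr2 alone, so cuts mostly came in pairs. The Poisson intervals of peak counts take each cut as independent and are thus too narrow. Fli1 promoter peaks were at 59.3 (54.5 to 64.4) and 42.0 (35.1 to 49.99) in myeloid-like nuclei of Foxr2 p53LOF and Foxr2 alone and at 40.4 (25.3 to 61.2) in lymphoid-like nuclei, against 6.34 and 4.43 in astrocyte-like, 4.62 and 1.23 in neuron-like and 1.85 and 0.576 in oligodendrocyte-like nuclei. In COP-like nuclei of Foxr2 p53LOF they were at 8.26 (6.88 to 9.83). In OPC-like nuclei they were at 33.5 (20.4 to 51.7, 20 counts) in Foxr2 p53LOF, which overlapped the lymphoid-like level, and at 6.25 (2.86 to 11.9, 9 counts) in Foxr2 alone. The Ets1 peak at its downstream start was at 152 (121 to 189) in lymphoid-like nuclei, 48.6 (45.2 to 52.2) in COP-like nuclei, and 47.9 and 47.0 in astrocyte-like nuclei of Foxr2 p53LOF and Foxr2 alone, although Ets1 RNA differed between the latter. Ets2 promoter counts were 4.81 (3.42 to 6.58) and 4.22 (3.39 to 5.20) in oligodendrocyte-like nuclei, against 32.0 to 65.7 in the other classes. Ets2 RNA was lowest in the same class of Foxr2 p53LOF, at 3.43 CPM.

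Elk3 promoter counts, over the window printed above and its surroundings, were 25.6 and 32.2 on the same scale in myeloid-like nuclei and 17.7 (15.6 to 19.95) and 7.84 (4.97 to 11.8) in astrocyte-like nuclei of Foxr2 p53LOF and Foxr2 alone. In neuron-like nuclei they were 3.73 (2.92 to 4.70) and 2.39 (2.02 to 2.82), so on this scale the promoter was not higher in Foxr2 alone, where Elk3 RNA was, while per nucleus the counts were 0.0318 (0.0249 to 0.0401) and 0.0334 (0.0281 to 0.0394). Erg promoter counts were 18.9 (16.8 to 21.2) in COP-like, 20.2 (10.1 to 36.2) in lymphoid-like and 10.7 (9.12 to 12.5) in astrocyte-like nuclei of Foxr2 p53LOF, against 4.09 (2.11 to 7.14) in astrocyte-like nuclei of Foxr2 alone and 0.637 (0.234 to 1.39) in myeloid-like nuclei of Foxr2 p53LOF. COP-like and lymphoid-like nuclei thus had the highest values of the Erg promoter and of Erg RNA among the classes with at least 50 nuclei. The lymphoid-like RNA rested on 4 UMIs in 2 of 95 nuclei. Lymphoid-like intervals overlapped the astrocyte-like ones of Foxr2 p53LOF for both RNA and promoter, so their order is not settled. In cluster 34, where Erg RNA was highest, the Erg peak near its most upstream start held 0 counts in Foxr2 p53LOF (upper limit 15.7 on the same scale). In Foxr2 alone it held 4 counts (21.1, interval 5.74 to 53.9). Erg also had a peak near its most downstream start, at position 95459245 of chromosome 16, in Foxr2 p53LOF and in neither replicate of Foxr2 alone. Counts in that peak are not part of these values. The Fli1 promoter in cluster 34 held 1 count in Foxr2 p53LOF (4.25, interval 0.108 to 23.7) and 11 in Foxr2 alone (57.9, interval 28.9 to 104). Etv6 promoter counts were 58.8 (53.7 to 64.4) and 27.1 (24.9 to 29.4) in oligodendrocyte-like nuclei, where the RNA also differed, but 64.7 (60.7 to 68.9) and 66.5 (57.5 to 76.5) in astrocyte-like nuclei, where RNA was at 443 and 85.3 CPM. Etv4 promoter counts were 46.9 (43.5 to 50.5) and 60.3 (51.8 to 69.9) in astrocyte-like nuclei, with the lower value in the library with more Etv4 RNA. Since cuts mostly came in pairs, these intervals are too narrow, and a difference beyond counting error is not settled. Etv1 counts were 37.3 (34.2 to 40.5) and 53.2 (45.1 to 62.2) and Etv5 counts 97.8 (92.8 to 103) and 132 (119 to 145) in the same nuclei, and those of Gabpa 52.8 (49.2 to 56.6) and 80.1 (70.2 to 91.0). So on this scale no PEA3 gene had more counts near its most upstream start in astrocyte-like nuclei of Foxr2 p53LOF. Per nucleus the intervals overlapped for all 3. In Foxr2 p53LOF and Foxr2 alone Etv4 was at 0.514 (0.477 to 0.554) and 0.444 (0.381 to 0.514) counts per nucleus. Etv1 was at 0.409 (0.376 to 0.444) and 0.391 (0.332 to 0.457), and Etv5 at 1.07 (1.02 to 1.13) and 0.967 (0.873 to 1.07). Etv1 also had a peak at its most downstream start, at position 38783509 of chromosome 12, in both replicates 1. Etv5 had one at position 22436514 of chromosome 16 in Foxr2 p53LOF and Foxr2 alone replicate 2, and none in Foxr2 alone replicate 1. Counts in these downstream peaks are not part of the values above. Peaks were called in each library on its own and differ in length by library, which limits these comparisons.

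**Figure D5:**
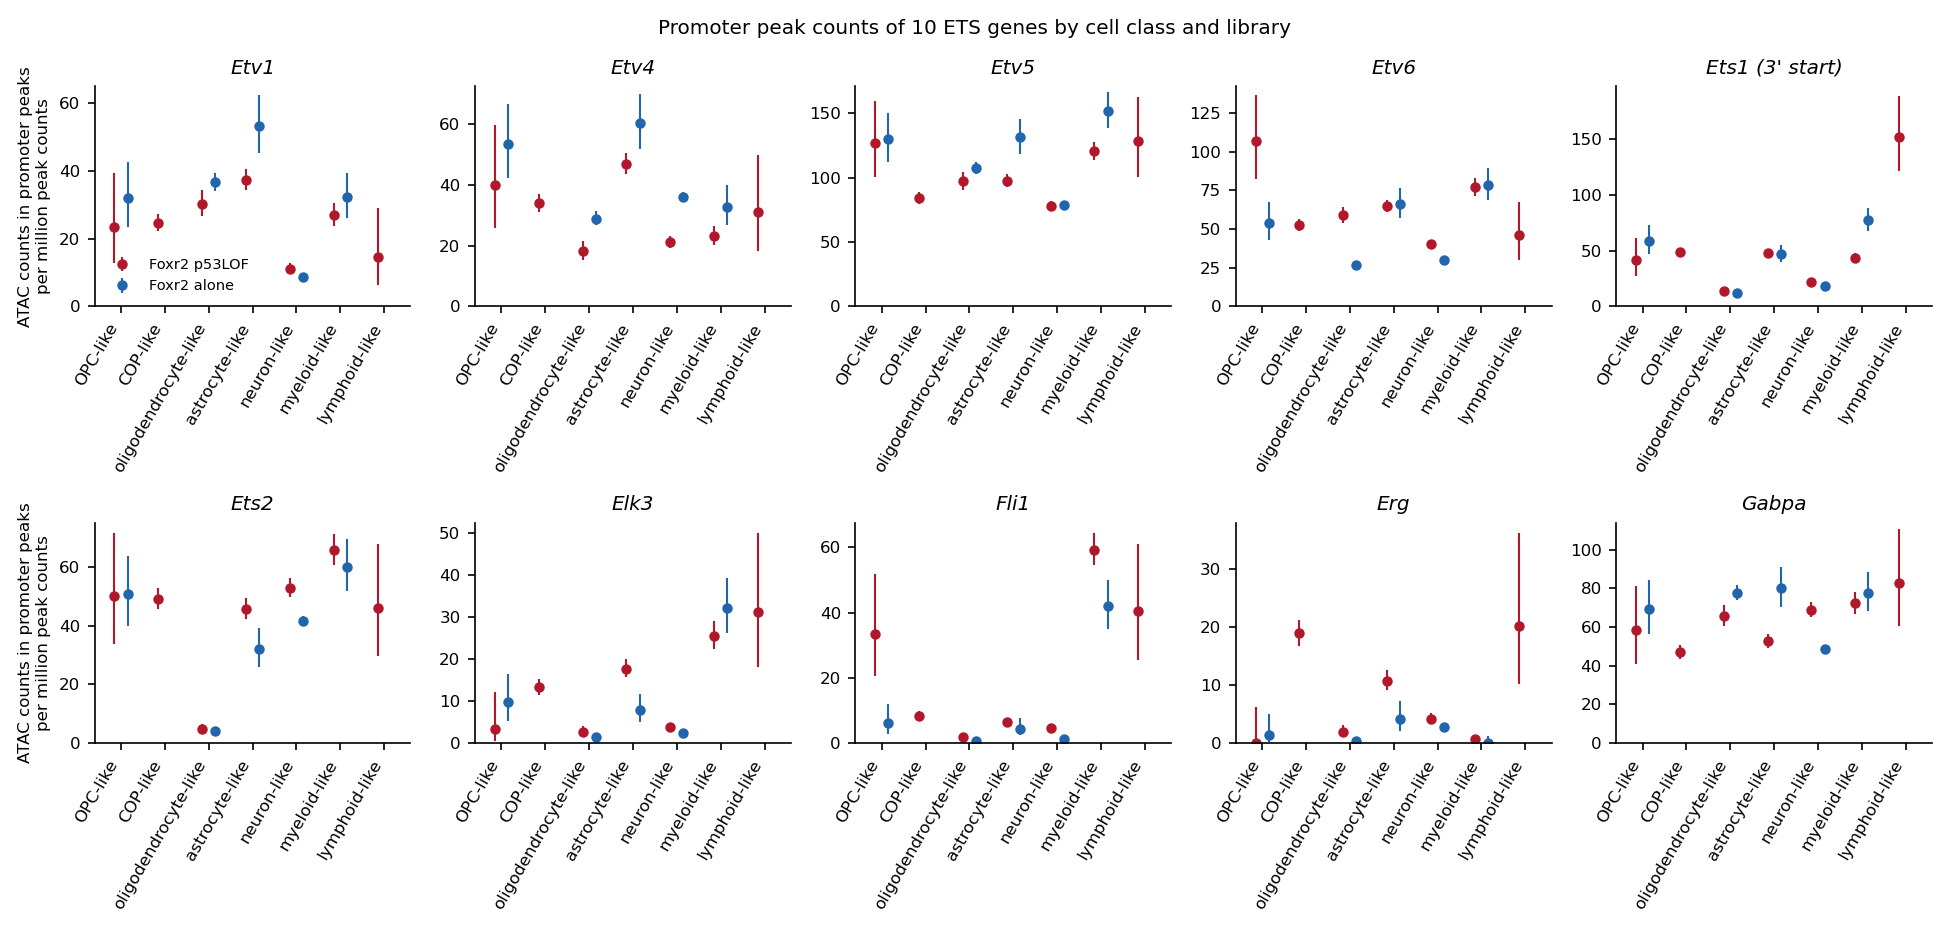
ATAC counts in the promoter peaks of each member per 1000000 peak counts of the class (y axis, starting at 0 and scaled by gene), for each class with at least 50 nuclei, with exact Poisson 95% intervals (red, Foxr2 p53LOF; blue, Foxr2 alone). For Ets1 the peak at its downstream start is plotted, and for the others the peaks near the most upstream start. Fli1 is highest in myeloid-like and Ets1 in lymphoid-like nuclei, and Ets2 is near 4.81 and 4.22 in oligodendrocyte-like nuclei.

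Likeness was taken over the 27 clusters with at least 50 nuclei, with both libraries pooled, which include cluster 34 with 54 nuclei. The genes most like each member in log2(CPM + 1) were ranked by Pearson correlation among 15785 genes with 10 CPM in a cluster. This is a description over clusters that share libraries and depth. Fli1 was nearest to Sipa1 (r = 0.97), Klhl6 (0.97) and A630001G21Rik (0.97), Etv6 to Trim30a (0.96), Irf2 (0.96) and Lrrk1 (0.95), Erg to Pla2r1 (0.95), Tmem45a (0.85) and Gm15998 (0.84), and Elk3 to Gcnt2 (0.90), Gm26510 (0.90) and Arap3 (0.89). Gabpa was nearest to Dnmt3b (0.85), Syncrip (0.83) and Cdc42se1 (0.82), and Ets1 to Gimap8 (0.79), Metap1 (0.78) and Maea (0.77). Etv4 was nearest to Sox21 (0.79), C1ql1 (0.78) and Syde2 (0.76), Etv1 to Creb3l2 (0.77), Gnl2 (0.75) and Trim24 (0.74), Ets2 to Borcs6 (0.73), Ankrd37 (0.72) and Zfand2a (0.72), and Etv5 to Zswim6 (0.71), E2f3 (0.71) and 0610040J01Rik (0.70). With a minimum of 30 CPM in a cluster, Dnmt3b, Sox21, Borcs6 and Gm15998 dropped out, and the other genes named stayed. Among the members, Etv6 and Fli1 had the highest correlation (r = 0.90), then Elk3 and Fli1 (0.83), Etv6 and Elk3 (0.75), and Etv1 and Etv4 (0.68). The pattern of Etv6 over these clusters was thus nearer to that of Fli1 and Elk3 than to that of Etv5 (0.61), Etv4 (0.17) or Etv1 (0.08). The 8 myeloid-like clusters of Foxr2 p53LOF each entered as 1 of the 27 points, so immune-like nuclei weigh heavily in these correlations.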

How the data were processed

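The authors aligned the reads to mm10 with added vector sequences and made the deposited matrices with Cell Ranger ARC 2.0.0, in which each value is a raw count, UMIs per gene or transposase cuts per peak, and peaks were called in each library on its own. Printed gene positions and strands were those of GENCODE vM21, and promoter sequences those of RefSeq. Gene starts for the promoter peaks were those listed with the deposited counts, which can differ from GENCODE. For Fli1 the start used was 32541595, against a GENCODE end of 32542861 on its minus strand. The members and gene lists were chosen with earlier results of these data known. Nuclei with at least 400 genes, at least 400 fragments (estimated from peak counts) and at most 5% mitochondrial UMIs were kept. Upper limits on genes, UMIs and fragments were also applied. These limits followed the study, but its filters on transcription start site enrichment and nucleosome signal were not applied. Doublets were removed with Scrublet (scanpy 1.11.5, expected rate 8%), which marked 3.43% of Foxr2 p53LOF and 5.97% of Foxr2 alone. Nuclei of both libraries were clustered together (2000 variable genes, 30 principal components, 20 neighbours, Leiden resolution 0.5), and mixed clusters were split again. The thresholds for naming clusters and splitting them were set after the data were seen. UMIs were summed per class and library and divided by the UMIs of the class. The intervals are exact 95% intervals (Poisson for levels, conditional binomial for ratios, Clopper-Pearson for shares) and cover counting error only. For peak counts, cuts that come in pairs make them too narrow. Classes with at least 50 nuclei were compared. All members were described in every such class, and of each list the 2 genes with the largest ratio past 2-fold were named in each class, beside called genes named after their values were seen. The counting was tested on simulated data. Alternatives changed the filters, doublets, resolution, CPM minimum, scaling, thinning, vector definition, promoter window and, chosen after seeing the data, cluster 4, shared barcodes and gene starts.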

Additional observations from a re-analysis of the deposited data

Results flagged for a closer look

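The library difference of Elk3 ran in opposite directions between classes. Its log2 ratio between the libraries, positive where Foxr2 p53LOF was higher, was higher in astrocyte-like than in neuron-like nuclei by 5.78 and higher in myeloid-like than in neuron-like nuclei by 4.44. Each library is 1 sample, so the difference between classes was not tested. These classes were also made of mostly different clusters in the libraries, so the kind of nucleus and the library cannot be told apart. Cdk17, which overlaps Elk3 on the opposite strand, was also lower in neuron-like and higher in astrocyte-like nuclei of Foxr2 p53LOF, and its part was not tested.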

How the results depend on the processing

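With 1 library of counts per genotype nothing could be left out as a replicate. No paired analysis was possible because each genotype with counts has 1 library and no test was made. Of 84 counts of members past 2-fold between the libraries under alternatives, 76 stayed within 1.5 times the reported count. The cause of the changes below was not tested. Of members higher in Foxr2 alone, 1 (Ets2) was called in oligodendrocyte-like nuclei with at least 1000 genes and peak counts per nucleus, 1 (Ets2) in astrocyte-like nuclei with the limits applied to peak counts, and 2 (Ets2 and Elk3) in oligodendrocyte-like nuclei at 5 CPM. Of members higher in Foxr2 p53LOF, UMIs per nucleus gave 4 in OPC-like (Ets1, Etv1, Etv4 and Fli1), 4 in oligodendrocyte-like (Etv1, Etv5, Etv6 and Gabpa), 1 in neuron-like (Etv6) and 6 in myeloid-like nuclei (Ets2, Etv4, Etv5, Etv6, Elk3 and Gabpa), where 19.2%, 49.1%, 27% and 50.5% of all genes were called, and the astrocyte-like class without cluster 4 gave 3. Of 192 log2 ratios of members, 1 reversed, that of Fli1 in OPC-like nuclei, to -0.31 at Leiden resolution 1. Of 70 counts by vector, 54 stayed within 1.5 times. In Foxr2 p53LOF a GFP or Akaluc UMI as the definition gave 3 members higher with such a UMI in COP-like nuclei (9.25% of all genes). It gave 3 higher with (8.22%) and 1 higher without such a UMI (Erg, 9.02%) in astrocyte-like nuclei. There were 111 COP-like and 77 astrocyte-like nuclei without one. In the latter class the 2 members higher without a count became 0 with at least 3 ATAC counts, with thinning, with at least 1000 genes and peak counts, and at resolution 1, and became 1 with doublets kept (Fli1) and per nucleus (Erg). In Foxr2 alone, the members higher without a GFP or Akaluc UMI were 1 in astrocyte-like nuclei with thinning (Etv1), with doublets kept (Elk3) and at 5 CPM (Elk3), 1 in neuron-like nuclei with thinning (Elk3) and 1 in oligodendrocyte-like nuclei at 5 CPM (Ets2). Those higher with such a UMI were 1 in oligodendrocyte-like nuclei with doublets kept (Elk3) and 2 per nucleus (Elk3 and Gabpa). When peaks had to cover at least 50% of the promoter window, 0 members had one in Foxr2 p53LOF, 0 in Foxr2 alone replicate 1 and 0 in replicate 2, where 5.37%, 5.31% and 4.8% of all genes did. Peak counts per nucleus moved 68 of 106 ratios of promoter counts (a class over all named classes of its library) past their counting interval. The counts with cluster 4 only could not be made for the COP-like class, which holds none of it. Leaving out the 140 shared barcodes moved no count past 1.5 times. Classes with few UMIs, such as the OPC-like class, carry the widest intervals.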

Other observations

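Other ETS genes also followed the classes. Spi1, which encodes the myeloid factor PU.1, was at 155 CPM in myeloid-like nuclei of Foxr2 p53LOF and 164 CPM in those of Foxr2 alone, against 0.909 and 0.333 CPM in neuron-like nuclei. Elf4 was at 174 and 221 CPM in myeloid-like and 119 CPM in lymphoid-like nuclei, against 0.672 and 0.0605 CPM in neuron-like nuclei. Elf1 was at 265 and 218 CPM in myeloid-like, 218 CPM in COP-like, 160 and 63.8 CPM in astrocyte-like and 14.2 and 8.86 CPM in neuron-like nuclei. Etv2 and Elf3 had no UMI in any class with at least 50 nuclei.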
